A study of Mus musculus with 14 samples.

Results

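The 59 genes described here encode receptors for monoamines, acetylcholine, opioids, endocannabinoids, adenosine and neuropeptides, and were taken by gene name from a table of 55401 genes. They fall into 24 monoamine receptors, 5 muscarinic receptors, 5 opioid or cannabinoid receptors, 2 adenosine receptors and 23 peptide receptors, the last class including the leptin receptor. All 59 names had a row. RNA was sequenced from wild-type C57BL/6 mice, in 14 tubes of 4 to 5 PiC neurons each. The neurons carried EGFP delivered by a retrograde adeno-associated virus, AAVretro-EGFP, of which 0.1 µl was placed either in MeA or in PrL, so that each tube holds PiC cells whose axons took up virus in that region. The groups were male PiC-MeA (n = 3), female PiC-MeA (n = 3), male PiC-PrL (n = 4) and female PiC-PrL (n = 4), and PiC, MeA and PrL are used as the labels write them. Every group had the virus and the genotype in common, and there was no uninjected group. Neither the ages of the mice nor a batch or date were recorded in the labels. The labels do not say that tubes came from separate animals, so each p-value measures only the spread between these tubes.

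Nearly all of these receptors are G protein-coupled receptors of the cell membrane. Those coupled to Gs raise cyclic AMP, those coupled to Gi lower it and close calcium channels or open potassium channels, and those coupled to Gq raise intracellular calcium. In the cortex they carry the slow, modulatory signals of serotonin, noradrenaline, dopamine, histamine, acetylcholine, endocannabinoids and peptides, some made by axons from the brainstem and basal forebrain and some by local neurons.

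Promoter sequence is shown for 3 receptors to which the results return, because the study's subject is sex differences in expression and sex steroid receptors bind defined short motifs. Cnr1, the CB1 cannabinoid receptor, had the highest level. Cckbr, the cholecystokinin B receptor, was among the 4 receptors with at least 10 counts in every library. Htr2c, the serotonin 2C receptor on the X chromosome, had the highest mean CPM of the monoamine receptors before gene length was taken into account. The windows are the 250 bases before the start of the gene as RefSeq annotates it on GRCm38.p6, all on the plus strand, at chr4:33924014-33924263 for Cnr1, chr7:105425481-105425730 for Cckbr and chrX:146962263-146962512 for Htr2c. Capitals mark the letters TGACCT, the reverse complement of the estrogen response half-site AGGTCA. A half-site is only a part of a full response element.
Cnr1: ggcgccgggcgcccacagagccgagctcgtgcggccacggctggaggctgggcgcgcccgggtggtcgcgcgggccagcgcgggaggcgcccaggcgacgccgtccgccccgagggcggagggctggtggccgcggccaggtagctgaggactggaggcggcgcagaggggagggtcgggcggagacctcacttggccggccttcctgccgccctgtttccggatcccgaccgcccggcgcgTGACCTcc
Cckbr: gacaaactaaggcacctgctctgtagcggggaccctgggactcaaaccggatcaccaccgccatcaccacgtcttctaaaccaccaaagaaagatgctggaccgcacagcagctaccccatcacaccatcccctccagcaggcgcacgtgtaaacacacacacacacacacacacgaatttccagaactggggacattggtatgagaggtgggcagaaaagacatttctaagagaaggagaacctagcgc
Htr2c: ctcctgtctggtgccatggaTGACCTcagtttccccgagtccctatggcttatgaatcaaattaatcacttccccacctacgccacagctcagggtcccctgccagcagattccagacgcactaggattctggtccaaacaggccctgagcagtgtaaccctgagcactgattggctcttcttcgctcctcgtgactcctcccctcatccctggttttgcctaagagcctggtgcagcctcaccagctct
The start that RefSeq gives for Cnr1 lies upstream of the GENCODE start used further on, at 33924593, and the bases after it were not found in a GENCODE transcript of the gene. The Cnr1 and Htr2c windows each held 1 match to this half-site and the Cckbr window held none. Of the 59 receptors, 50 had a RefSeq window, with 69 windows in all. AGGTCA or TGACCT was found in 10 of the 69 windows (14.5%), against 14% of all 32851 windows of the same length. AGAACA or TGTTCT, the androgen response half-site, was found in 7 of the 69 (10.1%), against 16.1% of all windows. The cyclic AMP response element TGACGTCA, which reads the same on both strands, was found in 1 of the 69 (1.45%), the window of Sstr2, against 1.55% of all windows. No match to one of these motifs holds a whole match to another. The median GC content was 58.4% in the receptor windows and 52.4% in all windows.

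The 14 libraries held 6132985 to 15392217 counts. The 3 male PiC-MeA libraries stood apart before any receptor was considered: 18964 to 20014 genes had a count in them, where the other 11 had 12479 to 14908, and they held at least 10 counts for 84.1% to 90.6% of the 14599 genes tested, against 51.3% to 71.6%. Of 8 neuronal markers, 6 had 10 counts in some library of each group, and their summed level was 7680 to 9882 CPM (counts scaled to a common library size with TMM, the trimmed mean of M-values) in male PiC-MeA, 8306 to 11112 in female PiC-MeA, 13075 to 20944 in male PiC-PrL and 11236 to 16994 in female PiC-PrL. The other 2, Tubb3 and Nefl, are listed at 0 in every library. Markers of inhibitory neurons summed to 140 to 1888 CPM in male PiC-MeA, 41.5 to 129 in female PiC-MeA, 129 to 518 in male PiC-PrL and 184 to 5299 in female PiC-PrL, with 9, 7, 9 and 8 of the 10 markers reaching 10 counts in those groups. Dlx1 was listed at 0 in every group, and Slc32a1 in both female groups. Dlx1 lies wholly inside the spans of other genes, and 93.4% of protein-coding genes placed so are at 0 in all libraries. Its 0 therefore gives no upper limit on its RNA. Astrocyte markers summed to 1592 to 1967 CPM in male PiC-MeA, 691 to 790 in female PiC-MeA, where Aqp4 and Gjb6 were at 0, 1834 to 6411 in male PiC-PrL and 1664 to 2166 in female PiC-PrL. In the same order of groups, excitatory neuron markers summed to 849 to 2161, 1487 to 1951, 1446 to 1787 and 1195 to 1918 CPM. Oligodendrocyte markers summed to 328 to 1959, 427 to 2012, 256 to 1963 and 301 to 1897 CPM. Microglia markers summed to 199 to 338, 154 to 510, 276 to 902 and 174 to 404 CPM. The part of these library differences in the receptor results was not tested. With 4 to 5 cells in a tube, fewer cells with a receptor and less receptor RNA per cell cannot be told apart.

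Receptor RNA was patchy from tube to tube. Only 4 of the 59 receptors, Cnr1, Chrm1, Cckbr and Adora1, had at least 10 counts in all 14 libraries. A further 50 had them in some libraries and 5 in none, and the median receptor had them in 5 libraries. Of the 50 receptors that passed the filter on low counts, 8% had at least 10 counts in all libraries, against 26.7% of all genes tested. More than 50% of the summed CPM came from a single library for 36% of these 50 receptors, against 16.9% of all genes tested. The median of the mean CPM was 7.58 for these 50 receptors and 16.2 for all genes tested, and no share at a matched level was computed. The 50 include genes that passed through 1 group only, so these shares are a description.

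Male PiC-MeA libraries had at least 10 counts for 40, 44 and 41 of the 59 receptors. The numbers were 28, 27 and 27 in female PiC-MeA, 25, 12, 17 and 15 in male PiC-PrL, and 27, 15, 26 and 19 in female PiC-PrL. Each male PiC-MeA library was thus above all 11 others, and the share of all genes tested was higher in those 3 libraries too. In male PiC-MeA 31 receptors were present in all libraries of the group at this level, against 15 in female PiC-MeA, 5 in male PiC-PrL and 9 in female PiC-PrL. Among all genes tested these shares were 75.0% in male PiC-MeA, 52.9% in female PiC-MeA, 34.1% in male PiC-PrL and 38.3% in female PiC-PrL. The summed receptor level did not follow the number of receptors: it was 1132 to 1226 CPM in male PiC-MeA, 1154 to 1327 in female PiC-MeA, 897 to 1223 in male PiC-PrL and 867 to 1154 in female PiC-PrL.

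**Figure D1:**
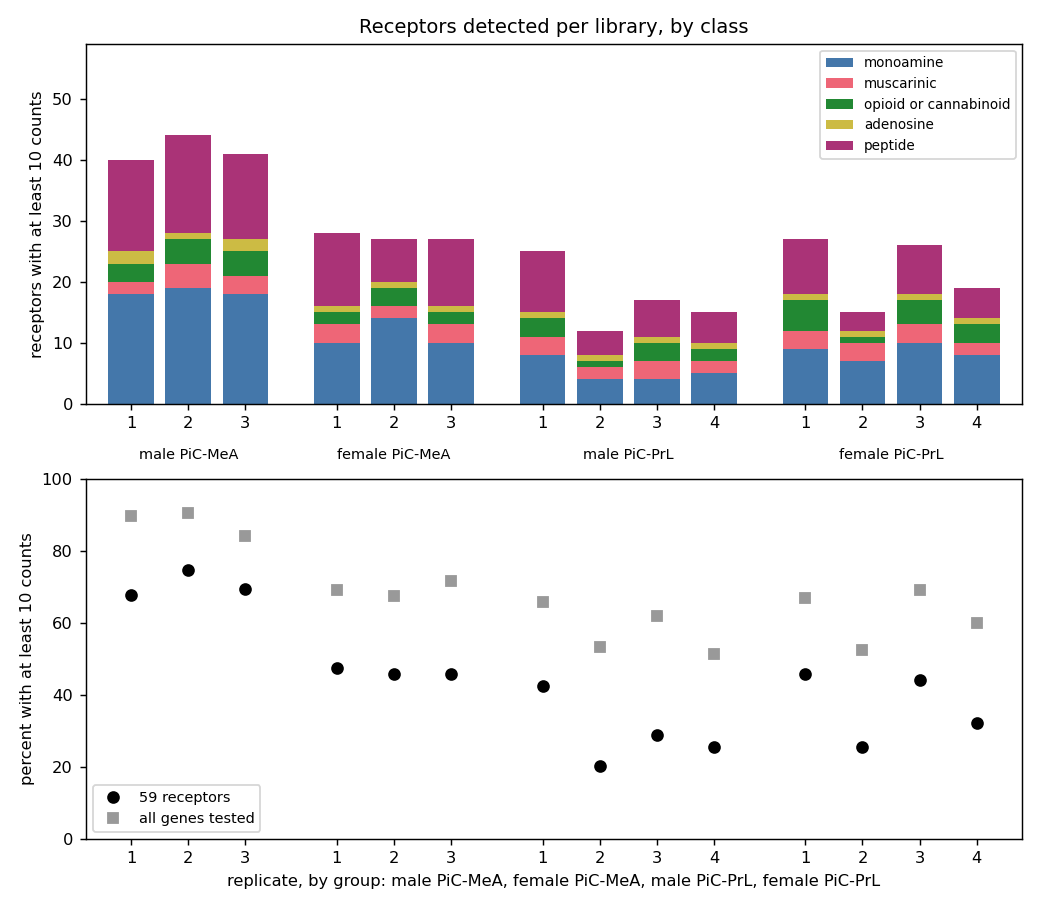
Receptors with at least 10 counts in each library, stacked by class (upper panel, number of receptors), and the percent of the 59 receptors (circles) and of all 14599 genes tested (squares) at that level (lower panel), by group and replicate. The 3 male PiC-MeA libraries, with 40 to 44 receptors, lie above the other 11, with 12 to 28, and the squares are higher in the same libraries. The 59 include receptors that did not pass the filter on low counts, so circles and squares have unlike bases.

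**Figure D2:**
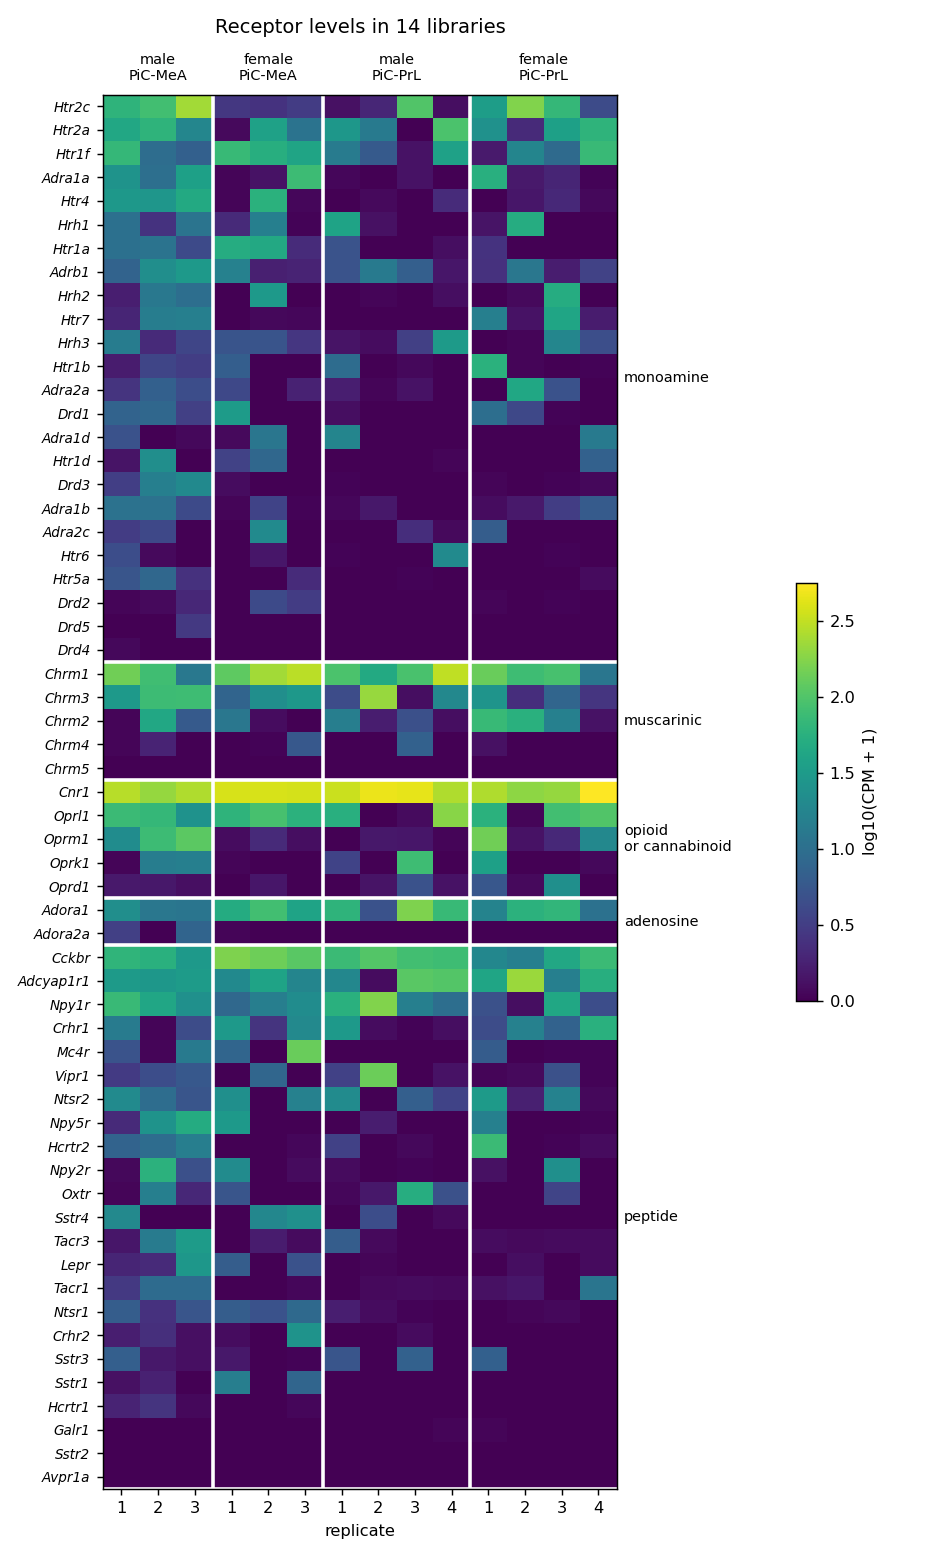
Level of each of the 59 receptors (rows, by class and mean level) in each of the 14 libraries (columns, by group and replicate), as log10(CPM + 1). A few rows such as Cnr1, Chrm1 and Cckbr are bright throughout, while 24 of the 59 receptors hold more than 50% of their summed CPM in a single library.

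By class, the median receptor reached 10 counts in 5.5 libraries among the 24 monoamine receptors, 8 among the 5 muscarinic, 7 among the 5 opioid or cannabinoid and 5 among the 23 peptide receptors. No monoamine receptor reached it in all 14. To compare genes, mean CPM over the 14 libraries was divided by the length of all exons of the gene in kilobases (GENCODE M21). Cnr1 led with 51.7 CPM per kb, ahead of Cckbr with 26.3, Chrm1 with 19.1, Oprl1 with 16.2, Htr1f with 11.1, Npy1r with 9.96, Adora1 with 8.20 and Adcyap1r1 with 7.84. The ranges of neighbours in this order overlapped over libraries, that of Cnr1 with that of Cckbr included. Summed over the receptors of a ligand, the level per kb was 51.7 for endocannabinoids, 31.4 for serotonin, 28.1 for acetylcholine, 26.3 for cholecystokinin, 16.2 for nociceptin and 15.5 for neuropeptide Y. It was 8.06 for noradrenaline, 5.10 for histamine, 5.07 for the 3 opioid receptors and 2.93 for dopamine. Most of the acetylcholine sum (67.8%) was Chrm1 and 64.1% of the neuropeptide Y sum was Npy1r, while the first of the serotonin receptors, Htr1f, made up 35.3%. Divided by the whole gene span in place of exons, Cnr1 remained first with 13.8 CPM per kb, and Oprl1 with 10.2 and Chrm1 with 6.25 stood ahead of Cckbr with 1.67.

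**Figure D3:**
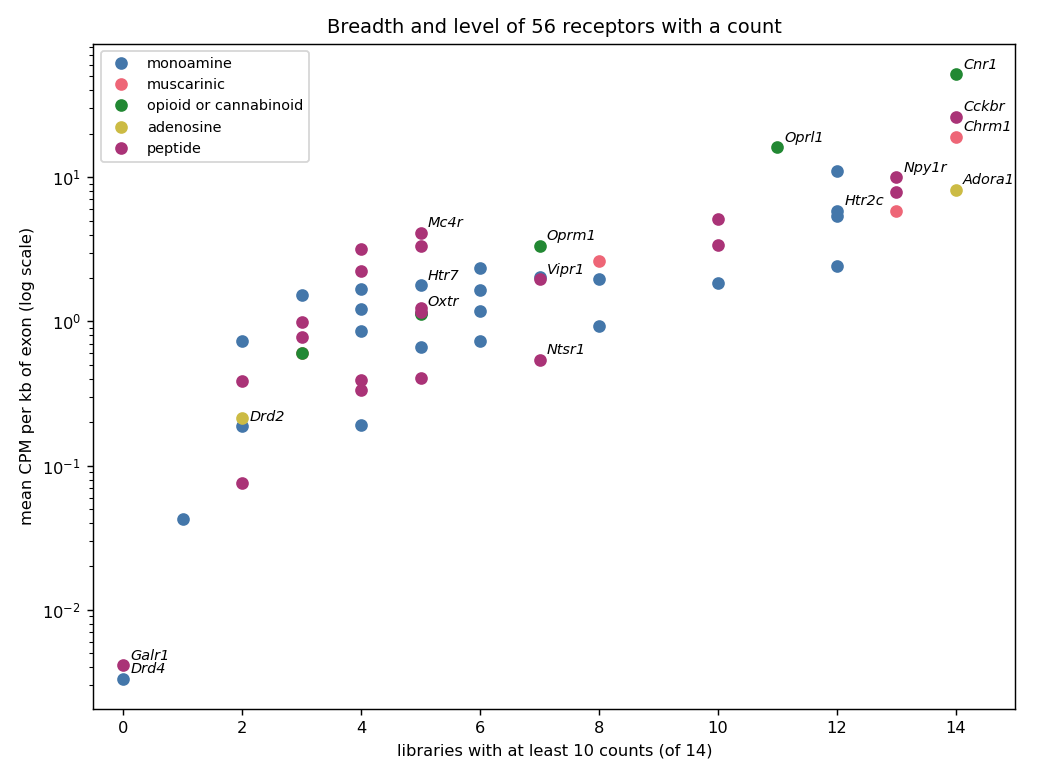
Mean level per kb of exon (log scale) against the number of libraries with at least 10 counts, for the 56 receptors with any count, coloured by class. Cnr1, Cckbr, Chrm1 and Adora1 lie at 14 libraries, and most receptors lie at 7 libraries or fewer.

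Drd4, Drd5, Htr6, Chrm5, Adora2a, Avpr1a, Sstr2, Galr1 and Hcrtr1 did not pass the filter on low counts and were not tested. Chrm5, Avpr1a and Sstr2 are listed at 0 in all 14 libraries. Avpr1a, the vasopressin 1a receptor, and Sstr2, a somatostatin receptor, lie wholly inside the spans of other genes. Of 1340 protein-coding genes placed in that way, 1251 (93.4%) are listed at 0 in all libraries, against 1831 of 11693 (15.7%) with no such overlap. The share was 91.9% for the 680 of them that share no exon base with another gene. Tubb3 and Nefl, which neurons express throughout, are among the genes at 0, so a 0 for Avpr1a or Sstr2 gives no upper limit on their RNA. Chrm5 overlaps no other gene. Of the receptors with counts, Oprm1 had 55.7% of its span inside other genes, Drd5 48.6%, Htr1b 41.1% and Hrh3 31.6%. Their levels are uncertain for that reason, and antisense genes overlap Drd5, Htr1b and Hrh3 and no source here says whether strand was used in counting.

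Cnr1 (chr4:33924593-33948831, plus strand), a Gi-coupled receptor that reduces transmitter release, was the most even of the named receptors. It had 289, 206 and 264 CPM in male PiC-MeA libraries and 388, 389 and 378 in female PiC-MeA libraries. It had 338, 469, 445 and 264 CPM in male PiC-PrL and 268, 195, 207 and 569 in female PiC-PrL. The male and female PiC-MeA libraries did not overlap, and the male and female PiC-PrL libraries did. Oprl1, the nociceptin receptor, had 75.5, 67.3 and 24.1 CPM in male PiC-MeA and 61.4, 87.9 and 57.5 in female PiC-MeA. In PiC-PrL it was split, with 54.2, 0, 0.209 and 182 CPM in males and 56.7, 0.0921, 82.0 and 101 in females. Thus 2 male PiC-PrL libraries and 1 female PiC-PrL library were at or near 0, while the remaining 5 PiC-PrL libraries had 54.2 CPM or more.

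Oprm1 (chr10:6758506-7038198, plus strand), the µ opioid receptor, was high in some tubes and near 0 in the rest. It had 20.8, 76.4 and 113 CPM in male PiC-MeA and 0.244, 1.13 and 0.257 in female PiC-MeA. It had 0, 0.489, 0.487 and 0.0924 CPM in male PiC-PrL and 143, 0.368, 1.07 and 18.5 in female PiC-PrL. All 3 male PiC-MeA tubes and 2 of the female PiC-PrL tubes, replicates 1 and 4, were therefore high. In those 5 tubes, in the same order, the summed inhibitory neuron markers were 140, 666, 1888, 2703 and 5299 CPM, against 41.5 to 518 in the other 9 tubes, and the part of those cells in the Oprm1 level was not tested. Oprk1, the κ receptor, and Oprd1, the δ receptor, reached 10 counts in 5 and 3 libraries and their highest levels were 77.5 and 22.5 CPM.

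Chrm1 (chr19:8663789-8683587, plus strand), the Gq-coupled M1 receptor typical of cortical principal cells, had 143, 81.2 and 11.5 CPM in male PiC-MeA and 118, 233 and 295 in female PiC-MeA. It had 94.5, 45.8, 90.2 and 308 CPM in male PiC-PrL and 134, 78.9, 88.1 and 11.1 in female PiC-PrL. Its groups overlapped in every comparison. Chrm3, also Gq-coupled, had 29.0, 75.8 and 78.7 CPM in male PiC-MeA, above the 6.82, 22.2 and 28.6 in female PiC-MeA. In male PiC-PrL it had 3.33, 211, 0.278 and 18.6 CPM, and in female PiC-PrL 25.8, 1.29, 6.99 and 1.68. Replicate 2 of male PiC-PrL stood far above the rest. The Gi-coupled Chrm2 and Chrm4 reached 10 counts in 8 and 3 libraries and ran up to 71.8 and 6.12 CPM.

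Adora1, the Gi-coupled adenosine A1 receptor, had 21.9, 11.3 and 10.8 CPM in male PiC-MeA, below the 48.3, 82.6 and 38.3 in female PiC-MeA. It had 61.0, 3.99, 168 and 70.3 CPM in male PiC-PrL and 16.1, 57.9, 64.0 and 9.68 in female PiC-PrL, where the sexes overlapped. Mybph shares 20.1% of the Adora1 exon length on the opposite strand. Adora2a, known in the brain for the striatum, reached 10 counts in 2 libraries, both male PiC-MeA, at 2.37 and 6.78 CPM.

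Serotonin receptors were the largest monoamine group. Htr2c (chrX:146962513-147197277, plus strand), a Gq-coupled receptor whose promoter is printed above, had 60.7, 82.8 and 238 CPM in male PiC-MeA and 1.79, 1.51 and 2.12 in female PiC-MeA. It had 0.321, 0.978, 101 and 0.277 CPM in male PiC-PrL and 33.0, 171, 66.7 and 3.30 in female PiC-PrL. The 3 female PiC-MeA tubes lay below every male PiC-MeA and every female PiC-PrL tube, and male PiC-PrL replicate 3 was the only high tube of its group. Htr2a, its Gq-coupled relative and the target of classical psychedelics, showed no such split. It had 43.5, 60.5 and 17.6 CPM in male PiC-MeA, 0.162, 36.4 and 10.3 in female PiC-MeA, 27.6, 12.3, 0 and 93.1 in male PiC-PrL and 23.8, 1.11, 35.6 and 61.6 in female PiC-PrL. Htr1f, coupled to Gi, had 67.3, 8.61 and 6.06 CPM in male PiC-MeA and 70.9, 52.7 and 40.1 in female PiC-MeA. It had 13.1, 4.97, 0.348 and 36.5 in male PiC-PrL and 0.563, 17.1, 8.06 and 73.4 in female PiC-PrL, and the sexes overlapped in each projection, as did the projections in each sex.

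Htr4 and Htr7 both raise cyclic AMP through Gs. Htr4 had 28.6, 27.1 and 46.0 CPM in male PiC-MeA and 0.0812, 56.2 and 0.129 in female PiC-MeA. It was at or under 1.20 CPM in all 4 male PiC-PrL tubes (0, 0.163, 0 and 1.20) and all 4 female PiC-PrL tubes (0, 0.461, 1.07 and 0.140). Thus each tube with more than 2 CPM of Htr4 was a PiC-MeA tube. Htr7 (chr19:35958734-36057507, minus strand) had 0.947, 13.6 and 14.3 CPM in male PiC-MeA and 0, 0.151 and 0.129 in female PiC-MeA. It had no count in any male PiC-PrL tube, and 14.4, 0.368, 40.2 and 0.631 CPM in female PiC-PrL. The sexes did not overlap in either projection, with males the higher in PiC-MeA and the lower in PiC-PrL.

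Of the receptors for other monoamines, Adra1a, a Gq-coupled noradrenaline receptor, had 24.9, 9.10 and 36.1 CPM in male PiC-MeA, 0.0812, 0.378 and 75.8 in female PiC-MeA, 0.128, 0, 0.348 and 0 in male PiC-PrL and 53.3, 0.553, 0.927 and 0.0702 in female PiC-PrL. Hrh1, the Gq-coupled histamine H1 receptor, had 9.39, 1.54 and 10.5 CPM in male PiC-MeA, 1.14, 14.6 and 0.0643 in female PiC-MeA, 38.3, 0.326, 0 and 0 in male PiC-PrL and 0.402, 50.0, 0 and 0 in female PiC-PrL. In both genes a single tube held most of the reads of at least 1 group. Drd3, a Gi-coupled dopamine receptor, had 2.21, 14.3 and 19.2 CPM in male PiC-MeA, 0.244, 0 and 0 in female PiC-MeA, 0.0641, 0, 0 and 0 in male PiC-PrL and 0.0805, 0, 0.0713 and 0.140 in female PiC-PrL, so that it passed 1 CPM in the male PiC-MeA tubes alone. Drd1 reached 31.4 CPM in 1 female PiC-MeA tube, and Drd2 did not pass 3.18 CPM in any tube.

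**Figure D4:**
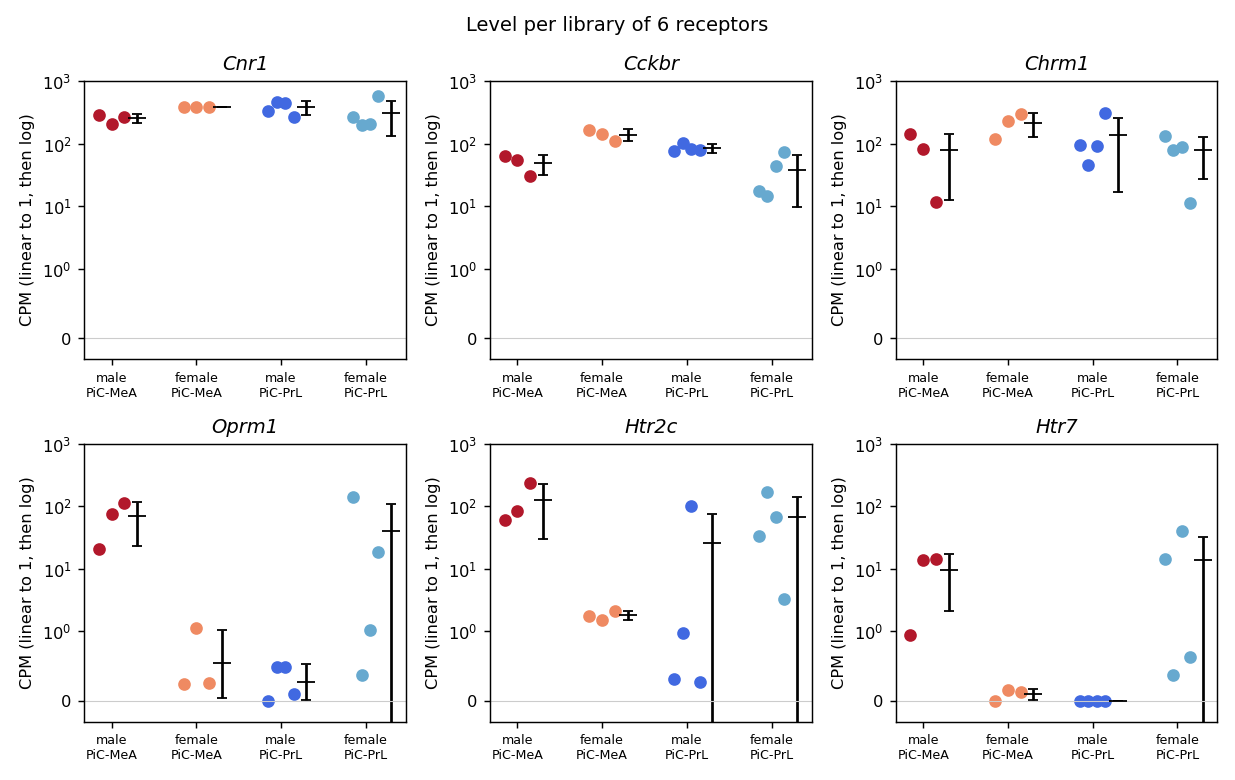
Level in each library (points, CPM on an axis that is linear to 1 and logarithmic above) of Cnr1, Cckbr, Chrm1, Oprm1, Htr2c and Htr7 in the 4 groups, with the mean and SD of each group in black. Bars that reach below 0 are cut by the axis. Cnr1 lies between 195 and 569 CPM throughout, while Oprm1, Htr2c and Htr7 are spread from near 0 to high levels.

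Among the peptide receptors, Cckbr (chr7:105425731-105470898, plus strand), a Gq-coupled receptor of cortical neurons for cholecystokinin, had 63.0, 54.6 and 29.9 CPM in male PiC-MeA and 167, 141 and 110 in female PiC-MeA. It had 75.2, 103, 81.5 and 77.7 CPM in male PiC-PrL and 17.7, 14.4, 44.2 and 74.0 in female PiC-PrL. Males were the lower in PiC-MeA and the higher in PiC-PrL, without overlap in either, although the gap in PiC-PrL was that between 75.2 and 74.0 CPM. Adcyap1r1, the Gs-coupled receptor for pituitary adenylate cyclase-activating peptide, had 30.5, 28.0 and 31.2 CPM in male PiC-MeA, 19.2, 39.0 and 16.9 in female PiC-MeA, 17.9, 0.244, 111 and 103 in male PiC-PrL and 41.1, 220, 14.5 and 52.3 in female PiC-PrL. It was close to even in PiC-MeA and spread widely in PiC-PrL.

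Npy1r, the Gi-coupled Y1 receptor, had 73.2, 41.3 and 23.1 CPM in male PiC-MeA, just above the 7.56, 14.2 and 21.1 in female PiC-MeA. It had 55.3, 172, 14.4 and 8.96 CPM in male PiC-PrL and 3.86, 0.276, 43.4 and 3.44 in female PiC-PrL. Crhr1, the Gs-coupled receptor for corticotropin-releasing hormone, had 12.9, 0.0812 and 3.32 CPM in male PiC-MeA, 28.9, 1.59 and 19.0 in female PiC-MeA, 30.0, 0.244, 0.0695 and 0.277 in male PiC-PrL and 3.38, 15.1, 6.42 and 55.6 in female PiC-PrL. Its groups overlapped throughout. Vipr1, a Gs-coupled receptor for vasoactive intestinal peptide, had 1.97, 3.49 and 4.76 CPM in male PiC-MeA, 0, 7.18 and 0 in female PiC-MeA, 2.44, 135, 0 and 0.370 in male PiC-PrL and 0.0805, 0.184, 3.85 and 0.0702 in female PiC-PrL, where a single male PiC-PrL tube held most of its reads.

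Ntsr1, the Gq-coupled neurotensin receptor used as a marker of deep cortical layers in mice, was low but separated the projections. It had 5.45, 1.46 and 4.33 CPM in male PiC-MeA and 5.44, 4.01 and 7.78 in female PiC-MeA, against 0.705, 0.244, 0.0695 and 0 in male PiC-PrL and 0, 0.0921, 0.143 and 0 in female PiC-PrL. Each of the 6 PiC-MeA tubes lay above each of the 8 PiC-PrL tubes. Mc4r, the Gs-coupled melanocortin 4 receptor, had 4.10, 0.0812 and 12.6 CPM in male PiC-MeA and 6.99, 0 and 133 in female PiC-MeA. It had no count in male PiC-PrL and 5.31, 0, 0.0713 and 0.0702 CPM in female PiC-PrL. Lepr, the leptin receptor, which signals through kinases and not G proteins, had 0.947, 1.14 and 27.7 CPM in male PiC-MeA, 5.52, 0 and 3.92 in female PiC-MeA, 0, 0.0815, 0 and 0 in male PiC-PrL and 0, 0.276, 0 and 0.210 in female PiC-PrL. The highest values of Mc4r and Lepr were thus in PiC-MeA tubes, but each was at 0 in 1 female PiC-MeA tube.

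Sstr1, a Gi-coupled somatostatin receptor, had 0.316, 0.812 and 0 CPM in male PiC-MeA and 14.1, 0 and 7.01 in female PiC-MeA, and no count in any of the 8 PiC-PrL tubes. Tacr3, the Gq-coupled neurokinin B receptor, had 0.474, 12.9 and 31.2 CPM in male PiC-MeA, 0, 0.605 and 0.193 in female PiC-MeA, 5.58, 0.163, 0 and 0 in male PiC-PrL and 0.241, 0.184, 0.214 and 0.210 in female PiC-PrL. Oxtr, the oxytocin receptor, reached 10 counts in 5 libraries and was highest at 51.2 CPM in a male PiC-PrL tube.

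The comparison of males with females among PiC-MeA neurons asks whether these neurons differ by sex. No receptor passed an adjusted p of 0.05 in edgeR's quasi-likelihood test, and neither did any other gene (0%). At an unadjusted p under 0.05 there were 6 of 50 receptors, all higher in males, against 12.4% of all genes tested. Those genes leaned the same way, with 1506 higher and 299 lower in males. DESeq2 called 4 receptors, Drd3, Htr2c, Htr7 and Oprm1, among 777 genes. In 10 receptors all male tubes lay above all female tubes (17.5% of all genes tested did) and in 3, Cnr1, Adora1 and Cckbr, below (8.76% of all genes). Oprm1 was 6.98 ± 2.31 higher in males on the log2 scale (approximate SE, edgeR adjusted p = 0.298) and Htr2c 6.13 ± 2.09 higher (edgeR adjusted p = 0.298). Cckbr was 1.50 lower (log2 change -1.50 ± 0.76, edgeR adjusted p = 0.448). The median over the 50 receptors was 0.63 (log2), with 28 positive, and over all genes tested 0.12, with 53.6% positive. Receptors that passed the filter on low counts through male PiC-MeA alone, such as Drd3, are among the 50, so this is a description. Markers of endothelial and mural cells summed to 28.0 to 115 CPM in male PiC-MeA and 0.529 to 2.51 CPM in female PiC-MeA, with 5 and 1 of 7 markers reaching 10 counts. In PiC-PrL they summed to 18.3 to 139 CPM in males and 2.12 to 115 CPM in females. The details that follow are for PiC-MeA. Cldn5 and Kcnj8 were at 0 in both groups and Pdgfrb in females. All 5 markers tested had higher values in males and none passed, and the part of such cells in the receptor values was not tested.

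The same comparison among PiC-PrL neurons again gave no receptor at an adjusted p of 0.05 and no other gene (0%). At an unadjusted p under 0.05 there were 5 of 50 receptors, all lower in males, against 14.3% of all genes. Of those genes, 1282 were lower and 811 higher in males. DESeq2 called Adra1a, Htr7, Oprm1 and Sstr4, which are 4 of its 1017 genes. Only Cckbr had all male tubes above all female tubes (1.49% of all genes did), with a log2 change of 1.17 ± 0.65 (edgeR adjusted p = 0.452), and only Htr7 had all male tubes below (2.02% of all genes). With no count in males, Htr7 was at least 60.3-fold lower in males than in females, taking 3 counts in each male library as the limit (edgeR adjusted p = 0.283). Female replicates 1 and 3 carried this difference, and without replicate 3 the limit was 22.3-fold. Oprm1 was lower in males by a log2 change of -7.20 ± 2.03 (edgeR adjusted p = 0.283), where 2 of the 4 female tubes carried the difference. The median over the 50 receptors was -0.61 and that over all genes -0.02, and 16 of the 21 monoamine receptors were lower in males. Of all 14599 genes tested, 7386 were lower in males.

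Whether the sex difference depends on the projection was tested as an interaction, the sex difference in PiC-MeA minus that in PiC-PrL. No receptor and no other gene passed in edgeR (0%), 8 receptors had an unadjusted p under 0.05 against 15.6% of all genes, and DESeq2 called 7, namely Cckbr, Drd3, Htr2c, Htr7, Oprm1, Sstr4 and Tacr1, among 1156 genes. Oprm1 had the smallest p of the receptors, with an interaction of 14.18 ± 3.17 on the log2 scale (edgeR adjusted p = 0.152). For Cckbr, which had at least 14.4 CPM in every tube, it was -2.67 ± 1.00 (edgeR adjusted p = 0.205). Averaged over both projections, no receptor differed by sex in edgeR (0.0137% of all genes passed), 2 had an unadjusted p under 0.05 (10.7% of all genes did), and DESeq2 called 1 receptor, Sstr4, among 647 genes. The receptors with an unadjusted p under 0.05 were Mc4r, at -5.09 ± 2.01 (edgeR adjusted p = 0.38), and Tacr3, at 4.23 ± 1.71 (edgeR adjusted p = 0.382), both log2. In neither averaged direction did the 7 male tubes and the 7 female tubes separate for any receptor, against 0.089% of all genes with males above and 0.0342% with males below.

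The comparison of PiC-MeA with PiC-PrL neurons in males holds the 3 libraries with the most genes. No receptor passed in edgeR, where 88 genes (0.603%) did. At an unadjusted p under 0.05 there were 17 of 50 receptors, all higher in PiC-MeA, against 22.2% of all genes. Those genes leaned the same way, with 2530 higher and 714 lower in PiC-MeA. DESeq2 called 8 receptors, namely Adra1a, Adra1b, Drd3, Htr7, Lepr, Mc4r, Npy2r and Oprm1, among 2022 genes. In 18 receptors all PiC-MeA tubes lay above all PiC-PrL tubes (19.2% of all genes), among them Drd1, Drd3, Htr4, Adra1a, Oprm1, Mc4r and Ntsr1, and only Cckbr lay below (6.23% of all genes). The median log2 change was 2.21 over the 50 receptors and 0.16 over all genes. It was 3.64 over 21 monoamine receptors, of which 17 were positive, 3.36 over 19 peptide receptors, -0.35 over 4 muscarinic receptors and -0.58 over 5 opioid or cannabinoid receptors. Of all genes tested, 53.4% were positive. Some receptors, such as Drd3, passed the filter on low counts through male PiC-MeA alone, which favours higher values there. These counts and medians are therefore a description. Drd3 changed by 8.78 ± 2.34 and Oprm1 by 7.99 ± 2.12, each with an edgeR adjusted p of 0.079. Htr7 was at least 41.8-fold higher in PiC-MeA and Mc4r at least 24.2-fold higher, against male PiC-PrL tubes with no count. Without male PiC-MeA replicate 3 the limit for Mc4r was 9.08-fold. When the number of genes detected was a covariate of the fit, no receptor was called and the median change of the receptors was -0.39, so its direction was not kept. Under that covariate the receptor medians of the sex comparisons turned as well, to -0.95 in PiC-MeA and 0.14 in PiC-PrL. Genes with a count numbered 18964 to 20014 in male PiC-MeA and 12479 to 14908 in the other 11 libraries. The fit therefore cannot separate the covariate from that group, and signs turned in comparisons that hold it are not interpreted.

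In females, where the libraries were closer in the number of genes, no receptor and no other gene passed in edgeR (0%). At an unadjusted p under 0.05 there were 13 of 50 receptors, 8 higher and 5 lower in PiC-MeA, against 11.1% of all genes, and DESeq2 called Cckbr, Htr2c, Htr7, Ntsr1, Oprm1 and Sstr4, 6 of its 628 genes. Ntsr1 and Cckbr had all PiC-MeA tubes above all PiC-PrL tubes (4.47% of all genes), and Htr2c and Htr7 had them below (3.97% of all genes). Cckbr was 1.89 ± 0.70 higher (log2, edgeR adjusted p = 0.403) and Ntsr1 6.40 ± 2.01 higher (edgeR adjusted p = 0.403). Htr2c was lower, at -5.24 ± 1.98 (edgeR adjusted p = 0.403). Against female PiC-PrL tubes with no count, Sstr4 was at least 57.8-fold higher, Crhr2 at least 35.7-fold and Sstr1 at least 29.9-fold, each carried by 1 or 2 of the 3 PiC-MeA tubes. Without the highest tube the limits were 37.6-fold for Sstr4 (without replicate 3) and 14.9-fold for Sstr1 (without replicate 1), and for Crhr2, without replicate 3, both groups were under the limit set by 3 counts. The summed inhibitory and astrocyte markers were lower in each female PiC-MeA tube than in each female PiC-PrL tube. The summed neuronal markers were lower too, at 8306 to 11112 CPM in female PiC-MeA against 11236 to 16994 in female PiC-PrL. The part of these marker differences in the receptor values was not tested.

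Averaged over the sexes, no receptor passed in edgeR, where 120 genes (0.822%) did. There were 15 receptors at an unadjusted p under 0.05, all higher in PiC-MeA, against 17.4% of all genes. Of those genes, 1773 were higher and 770 lower in PiC-MeA. The receptors tested include some that passed the filter through male PiC-MeA alone, so the 15 are a description. DESeq2 called 7 receptors, namely Adra1a, Drd3, Htr1a, Lepr, Mc4r, Ntsr1 and Sstr4, among 1492 genes. Ntsr1 came closest in edgeR, with a log2 change of 5.11 ± 1.34 (adjusted p = 0.0552), followed by Lepr with 6.49 ± 1.73 (adjusted p = 0.056). Ntsr1 was also the only receptor in which all 6 PiC-MeA tubes lay above all 8 PiC-PrL tubes, as 0.356% of all genes did, and no receptor lay wholly below (0.603% of all genes). Markers of other kinds passed in this comparison, the neuronal gene Snap25 with a log2 change of -0.86 ± 0.18 (edgeR adjusted p = 0.0363) and the astrocyte gene Aldoc with -1.57 ± 0.31 (edgeR adjusted p = 0.0248), both lower in PiC-MeA, and their part in the receptor values was not tested. As PiC-MeA and PiC-PrL tubes of each sex enter several of these comparisons, the comparisons are not independent of one another.

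**Figure D5:**
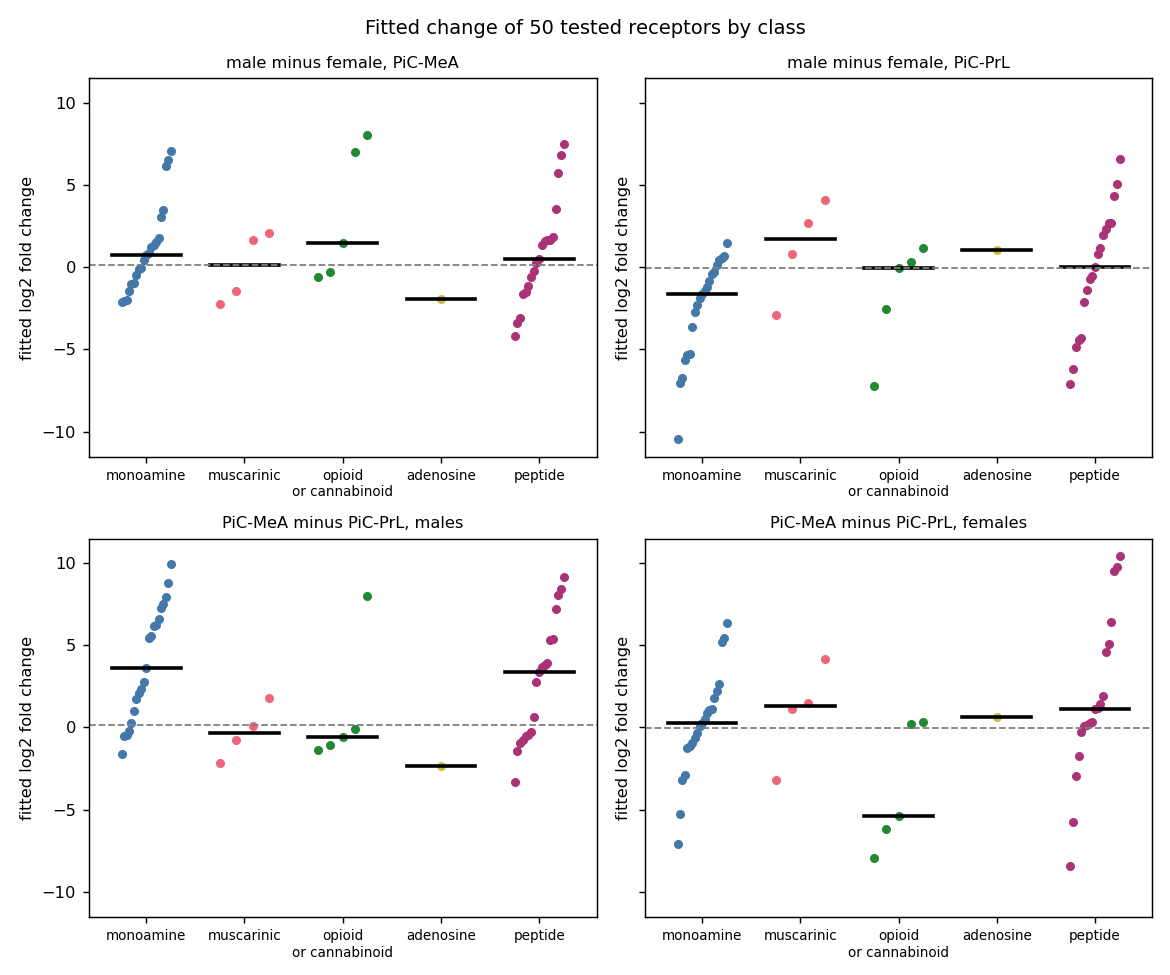
Fitted log2 fold change of each of the 50 tested receptors (points) by class, with the class median (black line) and the median of all genes tested (dashed line), for 4 comparisons. The changes between PiC-MeA and PiC-PrL in males have medians of 3.64 for monoamine and 3.36 for peptide receptors, above the dashed line at 0.16, and no point passed an adjusted p of 0.05. The receptors include some that passed the filter on low counts through male PiC-MeA alone.

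Genes that make or remove the ligands were read from a list of 27 in the table, of which 17 were tested. None passed in any of the 7 comparisons. The most abundant were the endocannabinoid hydrolases Faah, with a mean of 89.2 CPM and at least 10 counts in 13 libraries, and Mgll, with 75.4 CPM and 14 libraries, followed by Maob, a monoamine oxidase, with 64.4 CPM and 12 libraries. Among enzymes of monoamine synthesis, Ddc had a mean of 5.48 CPM with at least 10 counts in 6 libraries, Tph1 2.85 CPM, Th 2.00 CPM and Tph2 1.22 CPM. Of 8 genes for receptor kinases and arrestins, 7 were tested and none passed. Grk2, with 52.8 CPM, Arrb1, with 32.9 CPM, and Grk3, with 24.2 CPM, led. Of 25 further receptors of the same families in the table, 3 were tested and none passed.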

How the data were processed

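Libraries were made with SMART-Seq2 from polyadenylated RNA, per the labels' protocols. The authors deposited raw counts per gene, 1 column per tube, made with featureCounts 2.0.1, HISAT2 2.2.1, Trimmomatic 0.39 and SAMtools on mm10, per the submitters' processing notes. Which gene annotation was counted, whether strand was used and what was done with reads in overlapping genes is not stated there. Of 55401 identifiers, 54349 match GENCODE M21 (GRCm38) with the version and 55141 without it, and positions and lengths are taken from M21. Every column could be mapped to a sample, and no unnamed row entered the totals.

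Genes were kept by filterByExpr of edgeR 4.0.16 (R 4.3.3) (count at least 10, total at least 15), leaving 14599 scaled by TMM. A robust quasi-likelihood fit with 1 mean per group over all 14 libraries gave 7 contrasts, male minus female and PiC-MeA minus PiC-PrL within and averaged over the other factor, and their interaction. The threshold was an adjusted p of 0.05 (Benjamini-Hochberg, over all 14599 genes). The value after ± is an approximate SE. It is the size of the log2 change divided by the square root of the test's F statistic, and is not an error taken from the fit. The pipeline was tested on simulated data. For genes with no count in a group, 3 counts per library set the limit of a fold. Such limits cover counting error only.

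Alternatives were DESeq2 size factors, no filter, the DESeq2 1.42.0 Wald test, a replicate block, detected genes per library as a covariate and leaving out each library, and, added after seeing the data, leaving out the 3 male PiC-MeA libraries or the 3 PiC-PrL tubes of lowest gene number at 10 counts, and, for fold limits, the highest library. The receptors given in every library were those that passed, those with the highest mean level in each class (6 monoamine, 2 muscarinic, 2 opioid or cannabinoid, 1 adenosine and 6 peptide), and in each comparison but the interaction the 2 with the smallest p among those with 10 counts in 3 libraries. Other receptors are named after their values were seen. The members, lists and tests were chosen with earlier results of these data known.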

Additional observations from a re-analysis of the deposited data

Results flagged for a closer look

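In groups of 4 tubes, the highest or lowest tube was compared with its group by Dixon's test for 20 quantities in each of the 2 PiC-PrL groups, and 14 of 40 groups held a tube far from the other 3. The test flags about 1 in 20 groups when values are normally distributed. The receptors were named by level or small p, and CPM was often held by 1 tube, so that rate is no yardstick here. The 14 of 40 is a description. In male PiC-PrL, replicate 1 was far above the others for Hrh1 (38.3 CPM), Crhr1 (30.0 CPM) and Tacr3 (5.58 CPM) and far below them for the summed receptor level (897 CPM). Replicate 2 stood above for Chrm3 (211 CPM) and Vipr1 (135 CPM), replicate 3 for Htr2c (101 CPM) and replicate 4 for Htr4 (1.20 CPM). In female PiC-PrL, replicate 1 stood above the others for Oprm1 (143 CPM), Adra1a (53.3 CPM) and Mc4r (5.31 CPM). Replicate 2 did so for Hrh1 (50.0 CPM), and replicate 3 for Npy1r (43.4 CPM) and Vipr1 (3.85 CPM). Each of the 4 male replicates and 3 of the 4 female replicates was thus the outlying tube for some receptor. The PiC-MeA groups, with 3 tubes each, were not tested.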

How the results depend on the processing

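The count of receptors that passed was 0 in each of the 7 comparisons and stayed at 0 with DESeq2 size factors, with a covariate for genes detected, without the 3 PiC-PrL tubes of lowest gene number and, where a comparison could still be made, without the 3 male PiC-MeA libraries. The DESeq2 Wald test called 4 receptors for sex in PiC-PrL (of 1017 genes called), 4 for sex in PiC-MeA (of 777), 1 for sex averaged (of 647), 6 for projection in females (of 628), 8 in males (of 2022), 7 averaged (of 1492) and 7 in the interaction (of 1156). With no filter on low counts and 27912 genes tested, the numbers were 1 for sex in PiC-MeA (of 45 genes called), 1 for projection in males (of 159), 3 for projection averaged (of 452) and 2 in the interaction (of 84), and 0 elsewhere. Leaving out each library in turn gave 0 to 1 for projection in males, where Htr2c was called without male PiC-PrL replicate 3, and 0 in the other comparisons. With the replicate number as a block the count was 0 in each comparison, and the block changed no call of a named receptor. The residuals of tubes with the same number correlated between -0.0367 and 0.0495 over 19 pairs. Over 54 pairs with different numbers the range was -0.0968 to 0.0768. Correlations this near 0 cannot show whether tubes with the same number shared an animal or a day.

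Among single receptors, the covariate for genes detected turned the log2 change to -3.01 for Tacr3 by sex averaged, -8.55 for Drd3 and -20.22 for Adra1a by projection in males, 2.94 for Adora1 in the same comparison, 0.49 for Oprl1 by sex in PiC-MeA, -0.79 for Vipr1 by sex in PiC-PrL, and 3.86 for Adcyap1r1 and -11.24 for Mc4r by projection averaged, where the Mc4r fit had no usable error. Leaving out the 3 PiC-PrL tubes of lowest gene number turned it to 5.11 for Hrh1 by projection in females, -0.53 for Chrm3 by sex averaged and -0.10 for Vipr1 by sex in PiC-PrL. Leaving out single libraries gave -4.36 to 5.21 for Hrh1, with the highest value without female PiC-PrL replicate 2, and -0.16 to 8.20 for Vipr1, with the lowest without male PiC-PrL replicate 2. The cause was not tested in any of these. In comparisons that hold male PiC-MeA, the covariate fits cannot separate the number of genes from that group. Tubes of 4 to 5 cells limit what is detectable: 3 counts, the limit for a receptor at 0, correspond to 0.192 to 0.433 CPM per library, which does not apply to Avpr1a and Sstr2 inside other genes.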
